A study of Homo sapiens with 4 samples.

Results

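The clustered histone genes are the replication-dependent histone genes, whose older names start with HIST1H, HIST2H, HIST3H or HIST4H and whose current names are H1-1 to H1-6, H3-4 and the numbered H2AC, H2BC, H3C and H4C symbols. Every probe other than controls that carried such a gene, by RefSeq accession or by symbol, was taken, whatever its signal. This gave 78 of the 34127 probes on the array, for 67 genes, of which 66 are protein coding and 1, H2AC2P, is a pseudogene. By class there were 6 probes for H1, 18 for H2A, 22 for H2B, 14 for H3 and 18 for H4. Of the 67 genes, 57 had 1 probe, 9 had 2 and 1 (H2BC18) had 3.

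The cells were Hs746T, an established gastric carcinoma line in which MET is amplified and also carries an exon 14 skipping mutation, so every array holds cells with this mutant receptor. They were treated with DMSO, the solvent control, or with PHA665752, a small molecule inhibitor of the MET kinase, or were transfected with sc siRNA, a scrambled control, or with MET siRNA, and the transfected cells were harvested 48 h after transfection. Total RNA of each condition was hybridised to 1 single-colour Agilent human array, and all 4 arrays lay on 1 slide. With 1 array per condition there was no replicate error and no test, and precision is limited by the number of arrays. The dose and duration of PHA665752 for the arrays are not given in the sources used here.

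Core histones H2A, H2B, H3 and H4 form the protein spool of the nucleosome, and H1 binds the linker DNA. The clustered genes lie mostly in 1 large group on chromosome 6, with smaller groups on chromosome 1, and supply new histones while DNA is copied in S phase, when their mRNAs are both transcribed more and kept stable. These mRNAs have no introns and most end in a stem-loop bound by SLBP in place of a poly(A) tail. Some of the genes also give polyadenylated transcripts, mainly in cells that have left the cycle, and the labelling kit used here primes from poly(A). The probes' own sequences were not used here, so which end form a probe measured was not tested. Coding sequences within a core histone class are similar, and pairs such as H2AC18 and H2AC19 or H3C14 and H3C15 are copies of each other. The gene named for a probe is therefore uncertain where copies could share its signal.

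Of the 78 probes, 62 (for 52 genes) were well above background on all 4 arrays, namely 3 of H1, 13 of H2A, 20 of H2B, 12 of H3 and 14 of H4. A spot was marked as an outlier and left out on 1 array for 5 probes, on the MET siRNA array for H2AC14, H3-4 and H4C5 and on the DMSO array for H4C3 and H4C15. Values below are the processed signal, in arbitrary intensity units, and the log2 ratio of signals after each array was divided by its 75th percentile, which was 990.1 under DMSO, 853 under PHA665752, 831 under sc siRNA and 858 under MET siRNA. Over all probes well above background made up 61.1 to 68.2% per array, the lowest share being that of the MET siRNA array, which also had the most outlier marks (5.58% of spots, against 1.69 to 2.21% elsewhere). The MET probe had a signal of 221451 under DMSO, 100492 under PHA665752, 190010.0 under sc siRNA and 77854 under MET siRNA, a log2 ratio of -0.93 for the inhibitor and -1.33 for the siRNA. The epithelial markers EPCAM, KRT8, KRT18 and KRT19 were well above background on every array, with signals from 491 to 33631, while CDH1 had 10.4 to 33.0. Of the gastric markers TFF1 had 60.5 to 87.6 and MUC6 136 to 163, and of the leukocyte markers PTPRC had 22.7 to 37.8 and CD14 113 to 140.1, while the erythroid marker HBB, the T cell marker CD3E and the gastric marker GKN1 gave no ratio in any pair. In the inhibitor pair the endothelial markers PECAM1 (1846 under DMSO, 304 under PHA665752) and CDH5 had log2 ratios of -2.39 and -0.21, and the mesenchymal markers FN1 (1061 and 3564), CDH2 and ZEB1 had 1.96, 0.26 and -0.73. The part of these differences in the histone ratios was not tested.

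With PHA665752 the medians of the H3 and H4 probes were lower than with DMSO, and those of H1 and H2B were near 0, at 0.21 and 0.22, or at -0.035 and -0.025 with the 50th percentile as scale. In this pair 65 members had a ratio, with a median log2 ratio of -0.33, against 0.089 over all 23471 probes with one. More than 2-fold lower were 20 of them, or 30.8%, where the background was 7.43% of all probes. More than 2-fold higher were 3, or 4.62%, where the background was 12.8%. The class medians were -1.17 for H4 (14 probes), -1.06 for H3 (13 probes), -0.26 for H2A (14 probes), 0.22 for H2B (20 probes, 1 of them more than 2-fold lower) and 0.21 for H1 (4 probes). H3 and H4 together held 16 of the 20 lower probes among their 27 with a ratio, and none that was more than 2-fold higher. The 38 probes of H1, H2A and H2B held 4 that were lower and 3 that were higher, with a median of 0.13. All 14 H4 probes and 12 of 13 H3 probes lay below 0, whereas 16 of 20 H2B probes and 4 of 4 H1 probes lay above it. Over all probes with a ratio 13125 of 23471 lay above 0. The H1 and H2B counts depend on the scale, and H1-3, at 0.016, was at -0.23 with the 50th percentile. In bulk RNA, fewer cells in S phase and less histone RNA per cell cannot be told apart.

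**Figure D1:**
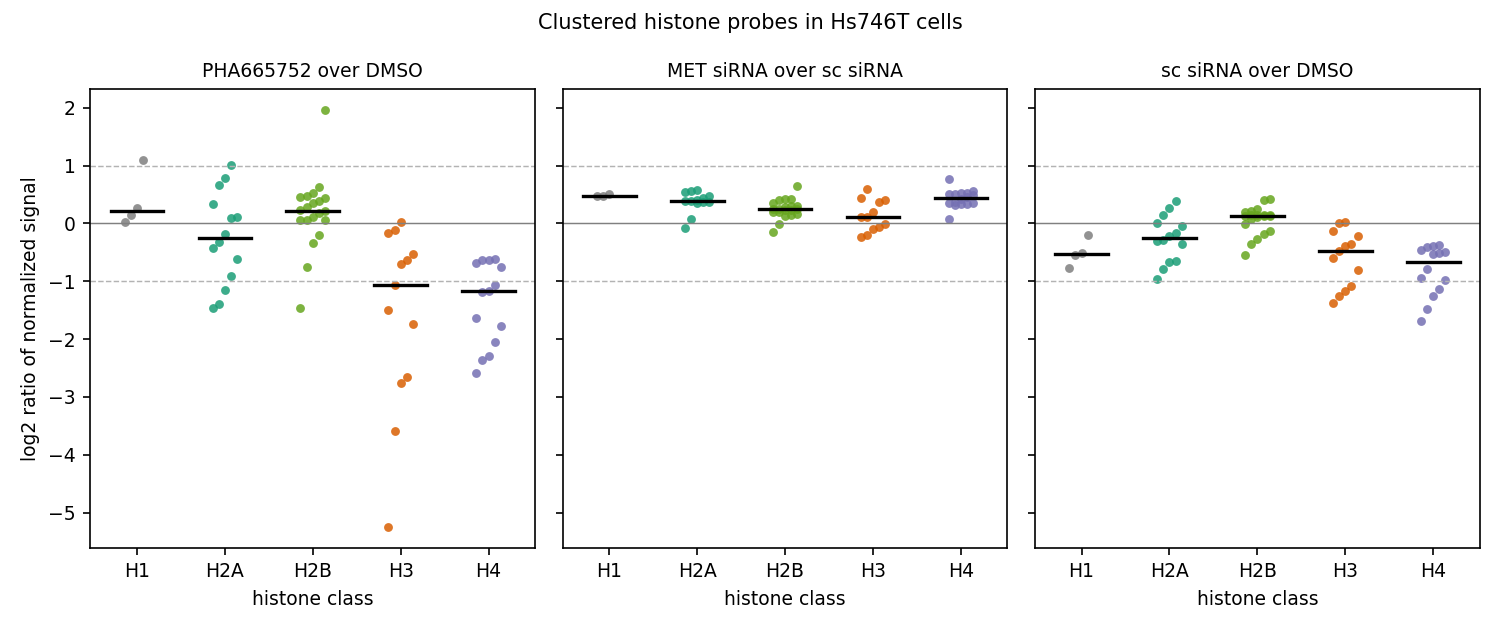
Log2 ratio of normalized signal (vertical axis) for each clustered histone probe by class, in the 3 pairs of arrays; each point is 1 probe on 1 array per condition, the bar is the class median, the dashed lines mark 2-fold, and the point of H1-1 in the right panel is a bound. With PHA665752 the H3 and H4 medians stood at -1.06 and -1.17 and that of H2B at 0.22, with MET siRNA no probe passed 2-fold, and between the controls H3 and H4 were again the lowest part of the range, down to -1.69.

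H3 is the core histone whose tail carries many of the marks that distinguish active from silent chromatin, and its probes spread most. H3C15 had a signal of 29537 under DMSO, 670.1 under PHA665752, 10382 under sc siRNA and 14570.2 under MET siRNA. The inhibitor array was thus far below the other 3, and the log2 ratio to DMSO was -5.25, or 38.0-fold lower, rank 7 among all 23471 ratios counted from the lowest. H3C2 had 15284 under DMSO, 1098 under PHA665752, 4955 under sc siRNA and 7689 under MET siRNA, again lowest with the inhibitor, at 12-fold below DMSO (log2 ratio -3.58, rank 31). H3C10 had 1260.2, 159.7, 500.1 and 670.0 in the same order of arrays, a log2 ratio of -2.77. H3C7 had 2166, 295, 804 and 1105.3, a log2 ratio of -2.66. In these 4 genes the order of the arrays was the same, with DMSO highest, then MET siRNA, sc siRNA and PHA665752.

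Other H3 probes stood closer to DMSO. H3C3 had 24524 under DMSO, 14687 under PHA665752, 20627 under sc siRNA and 19911 under MET siRNA, a log2 ratio of -0.53 for the inhibitor. H3-4, the testis histone gene of the HIST3 cluster, had 52927, 41983 and 45345 on the first 3 arrays, with its MET siRNA spot left out, and a log2 ratio of -0.12. H3C1, named after its values were seen as the one H3 probe above 0, had 9486 under DMSO and 8325 under PHA665752, a log2 ratio of 0.026. H3C13, one of the 3 H3 probes with the highest mean signal, lay between these and the former group, with 37770.3, 11577, 22812 and 25373 and a log2 ratio of -1.49. The H3 probes thus covered the range from 0.026 to -5.25, with quartiles of -2.66 and -0.53, and 7 of 13 passed 2-fold.

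H4, the most conserved of the core histones, gave the more uniform picture. The H4 ratios lay between -0.62 and -2.58, with 9 of 14 past 2-fold, and the PHA665752 array was the lowest of the 4 for each of the 14 H4 probes measured on every array and for 10 of 12 H3 probes, against 33.8% of all probes. H4C13 had a signal of 73319 under DMSO, 15190.1 under PHA665752, 25819 under sc siRNA and 34649 under MET siRNA, a log2 ratio of -2.06. These are values of its brighter probe, A_23_P70480. Its other probe, A_33_P3351851, was far dimmer, with 91.6, 35.1, 40.1 and 59.8 on the same arrays and a log2 ratio of -1.17. H4C2 had 52371, 9236, 15744 and 20866, a log2 ratio of -2.29. The DMSO spot of H4C3 was left out as an outlier, and its other signals were 72862 under PHA665752, 119850.0 under sc siRNA and 155637 under MET siRNA. With the outlier marks ignored its DMSO signal was 305223, which would give a log2 ratio of -1.86. H4C16, the only gene of the HIST4 group and named for that after its values were seen, had 184, 30.8, 70.1 and 102, a log2 ratio of -2.36.

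H1, H2A and H2B departed from this in individual genes. H1-2, a linker histone gene with a known polyadenylated form, had a signal of 63174 under DMSO, 116413 under PHA665752, 46335 under sc siRNA and 66126 under MET siRNA. It was highest with the inhibitor, 2.14-fold above DMSO (log2 ratio 1.096), where H1-3 and H1-4 had log2 ratios of 0.016 and 0.27. H2AC19, one of a pair of copied H2A genes on chromosome 1, had 1419, 2457, 1559 and 2407, a log2 ratio of 1.01 that lay just past 2-fold. With the 50th percentile as scale H1-2 was at 0.85 and H2AC19 at 0.76, and over the alternatives H2AC19 lay between 0.76 and 1.06, so neither was always past 2-fold. Between H2AC19 and the lowest H2A probe, at -1.46, the 14 H2A ratios were split into 6 above and 8 below 0. The 3 H2B genes with the highest mean signal, H2BC12, H2BC13 and H2BC9, had log2 ratios of 0.19, 0.48 and 0.46. H2BC9 had 12540 under DMSO, 14895 under PHA665752, 12092 under sc siRNA and 14603 under MET siRNA, so that its 4 arrays lay close together beside those of H3C15 or H4C2. The quartiles of the H2B ratios lay at 0.055 and 0.45. On the DMSO array 14 of 20 H2B probes had their lowest normalized signal, while 10 of 12 H3 probes and 11 of 14 H4 probes had their highest there, where over all 19869 probes measured on every array 27.3% had their lowest and 25% their highest.

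**Figure D2:**
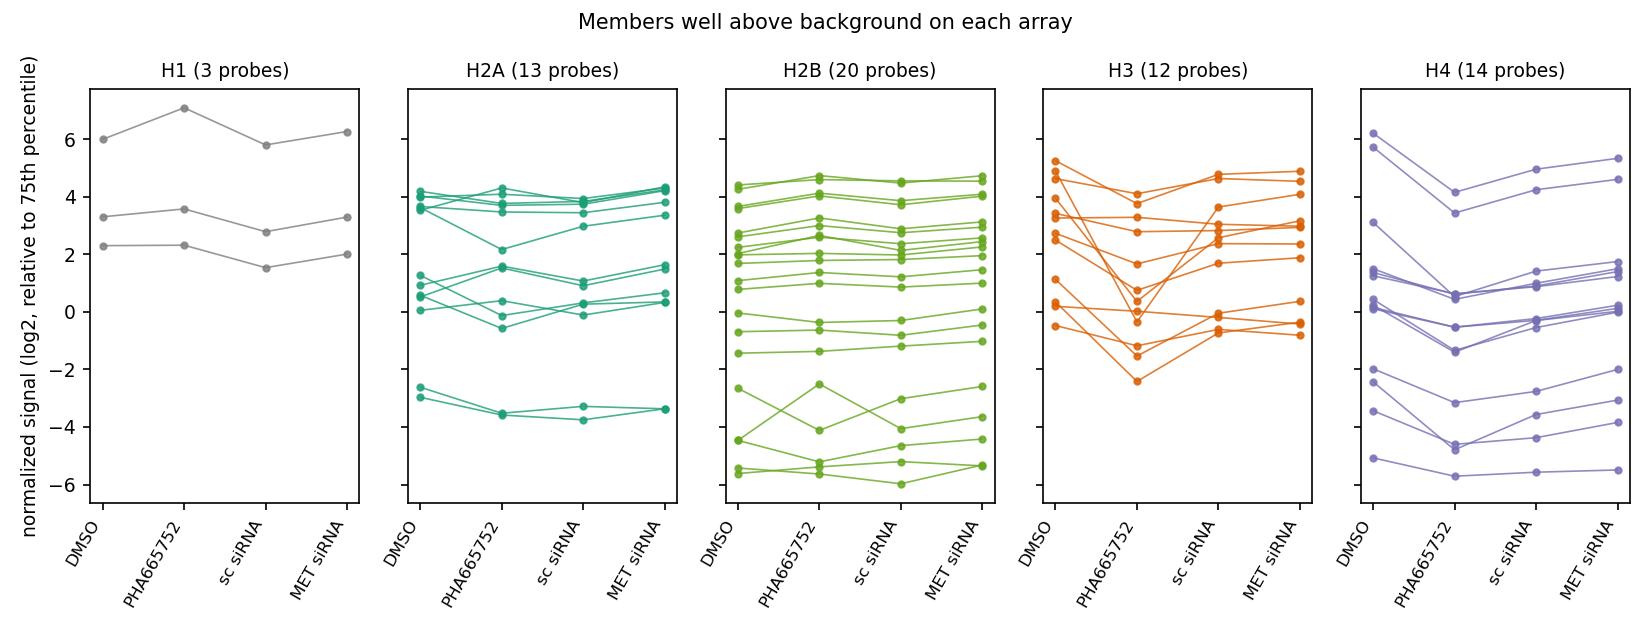
Normalized signal on the log2 scale (vertical axis, 0 being the 75th percentile of the array) on the 4 arrays (horizontal axis) for the 62 clustered histone probes well above background on each, 1 line per probe and 1 panel per class; heights of different probes cannot be compared with each other. The PHA665752 array was the lowest point for 14 of 14 H4 lines and 10 of 12 H3 lines, and among the H2B lines those of the H2BC21 probes moved most, to log2 ratios of 1.96 and -1.46.

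The promoters are shown because the classes that differed here are known to use different promoter elements beside shared ones. RefSeq gave a promoter (GRCh38.p14) for 61 of the 67 genes, and 250 bases before each start were searched on both strands for CCAAT, the box bound by NF-Y, for TATAA, for ATTTGCAT, the octamer bound by OCT1 (POU2F1), and for GGTCC, the core of an element described in H4 genes. CCAAT and GGTCC overlap where they read GGTCCAAT. CCAAT was found in 6 of 6 H1, 14 of 14 H2A, 18 of 18 H2B and 11 of 11 H3 promoters but in 3 of 12 for H4, and in 33% of all 27305 promoters. TATAA was found in 57 of the 61, against 19.6% of all. The octamer was found in 14 of 18 H2B and 10 of 14 H2A promoters, in 1 of 11 for H3 and in 0 of 12 for H4 and 0 of 6 for H1, against 1.66% of all. GGTCC was found in 11 of 12 H4 promoters, and in 1 of 6 for H1, 1 of 14 for H2A, 4 of 18 for H2B and 3 of 11 for H3, against 40.4% of all. A match is a description of the letters and not a site in use. Below are the 150 bases before the start, 5′ to 3′ on the gene's strand, with these motifs on either strand in capitals. The first 4 are H3 and H4 genes that were lower with PHA665752, and the last 2, H2BC9 and H2AC7, are genes with an octamer that were not, H2AC7 being chosen after its values were seen.
H3C15: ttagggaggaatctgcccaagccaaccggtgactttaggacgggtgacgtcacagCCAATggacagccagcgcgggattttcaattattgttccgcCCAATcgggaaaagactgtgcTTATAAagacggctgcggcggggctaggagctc
H3C2: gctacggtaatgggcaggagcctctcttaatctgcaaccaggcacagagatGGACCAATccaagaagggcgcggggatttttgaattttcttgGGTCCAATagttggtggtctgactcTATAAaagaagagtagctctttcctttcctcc
H4C4: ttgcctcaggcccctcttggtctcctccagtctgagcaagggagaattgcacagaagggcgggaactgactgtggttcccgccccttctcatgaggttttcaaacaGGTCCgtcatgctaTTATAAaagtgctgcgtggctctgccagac
H4C13: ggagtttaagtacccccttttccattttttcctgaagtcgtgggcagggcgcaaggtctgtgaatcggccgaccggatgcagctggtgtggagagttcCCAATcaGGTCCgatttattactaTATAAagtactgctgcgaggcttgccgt
H2BC9: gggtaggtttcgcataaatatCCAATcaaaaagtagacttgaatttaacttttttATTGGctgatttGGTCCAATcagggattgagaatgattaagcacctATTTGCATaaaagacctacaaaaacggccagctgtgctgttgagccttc
H2AC7: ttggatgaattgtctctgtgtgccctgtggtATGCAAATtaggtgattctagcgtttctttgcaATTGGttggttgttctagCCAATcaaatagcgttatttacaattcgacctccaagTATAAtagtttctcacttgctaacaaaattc

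In this table H3C15 is at chr1:149852458-149852607, plus strand, H3C2 at chr6:26032100-26032249, minus strand, H4C4 at chr6:26189113-26189262, minus strand, H4C13 at chr6:27873535-27873684, minus strand, H2BC9 at chr6:26251464-26251613, plus strand and H2AC7 at chr6:26199294-26199443, minus strand. The H3 and H2B promoters shown share CCAAT boxes, and H2BC9 differs from them in holding an octamer and no TATAA in the bases shown. H2AC7 had a signal of 11428 under DMSO, 16875 under PHA665752, 11545 under sc siRNA and 17450 under MET siRNA, a log2 ratio of 0.78 for the inhibitor. Within H2A, the 11 probes of genes with an octamer had a median of -0.42 and the 2 of genes without it 0.55. Within H2B the medians were 0.22 for 16 probes with it and 0.27 for 4 without it. Within H3 the 1 probe of a gene with an octamer had -1.75, and the 10 without it had a median of -1.28. Within H4 the medians were -0.93 for 4 probes of genes with CCAAT and -1.35 for 8 without it. The part of these motifs in the ratios was not tested.

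Genes of opposite behaviour lay side by side. A stretch of chromosome 6, chosen after its values were seen, runs H4C2, H3C2, H2AC4, H2BC3, H3C3 and H1-2 among the histone genes with a ratio. Their log2 ratios with PHA665752 were -2.29, -3.58, -1.15, 0.10, -0.53 and 1.096 in that order. On chromosome 1, H2AC19 at 1.01 is followed by H3C15 at -5.25. A neighbour here is the next histone gene with a ratio, even from another cluster, as H3-4 of HIST3 after H2AC21 of HIST2. Of the 52 such neighbour pairs on chromosomes 1 and 6, 28 joined an H3 or H4 gene to another class. These 28 differed by a median of 1.42 on the log2 scale. The 24 pairs within H3 and H4 or within the other classes, pooled, differed by a median of 0.79. Those within H3 and H4 alone ran from 0.52 (H4C1 and H4C2) to 2.02 (H4C6 and H3C7). The split of H3 and H4 from the rest follows the class medians of these same ratios, so a larger difference across it was built in. Whether neighbours resemble each other was not tested. By cluster, 15 of 52 HIST1 probes and 4 of 10 HIST2 probes were more than 2-fold lower, and 1 and 2 were more than 2-fold higher. Over all probes with a ratio 7.43% were lower and 12.8% higher.

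**Figure D3:**
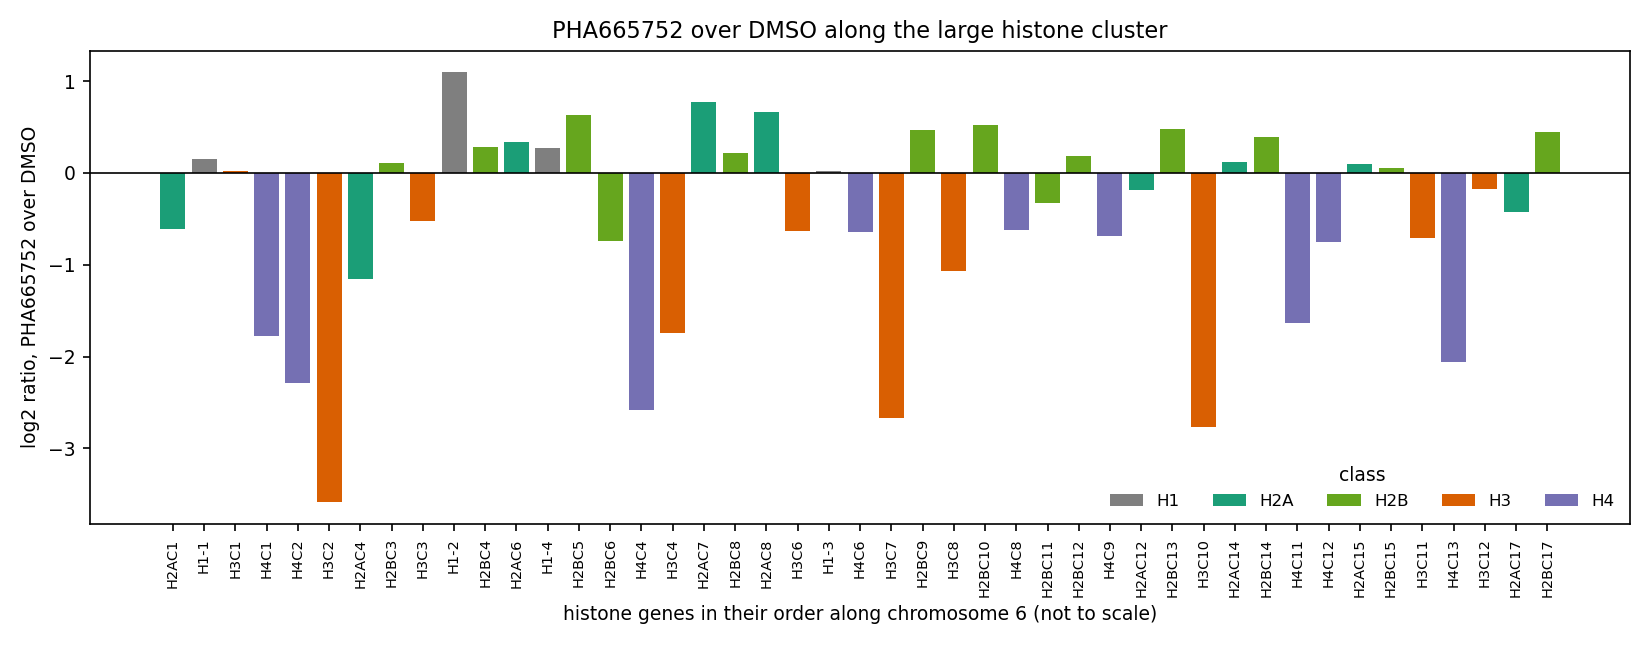
Log2 ratio of PHA665752 over DMSO (vertical axis) for the histone genes with a ratio, in their order along chromosome 6 (horizontal axis, not to scale), 1 bar per gene from its member probe with the highest mean signal, coloured by class. H3 and H4 bars reach down to H3C2 at -3.58 and stand among those of the other classes, whose lowest is H2AC4 at -1.15, while the H3 genes H3C1 and H3C12 are near 0, at 0.026 and -0.17.

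Probes of the same gene did not always give the same ratio. For H2BC21, which has a known polyadenylated form, probe A_23_P149545 had a signal of 44.8 under DMSO, 150.4 under PHA665752, 49.9 under sc siRNA and 68.8 under MET siRNA, and the inhibitor array was the highest. Probe A_33_P3229246 had 157, 49.1, 103 and 142 on the same arrays, and the inhibitor array was the lowest. The log2 ratios were 1.96 and -1.46, with 0.42 for both in the siRNA pair. With normexp background correction they were 1.20 and -0.80, so that the second was no longer past 2-fold. For H4C4, probe A_23_P395374 had 8553, 1232, 2217 and 2883 (log2 ratio -2.58) and probe A_33_P3410836 had 2804, 1154, 1655 and 2425 (log2 ratio -1.07). For H2AC6, probe A_23_P372860 had 161, 74.2, 85.3 and 83.0 (log2 ratio -0.90) and probe A_33_P3344127 had 1027, 1118, 769 and 1078 (log2 ratio 0.34). The part of transcript ends in these differences was not tested. The 8 genes of a list of members known to have polyadenylated transcripts, each by its probe with the highest mean signal, had a median of 0.24, with 1 higher (H1-2) and 1 lower (H2BC21) past 2-fold, where over all genes, each by its brightest probe, 13.1% were higher and 8.04% lower.

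**Figure D4:**
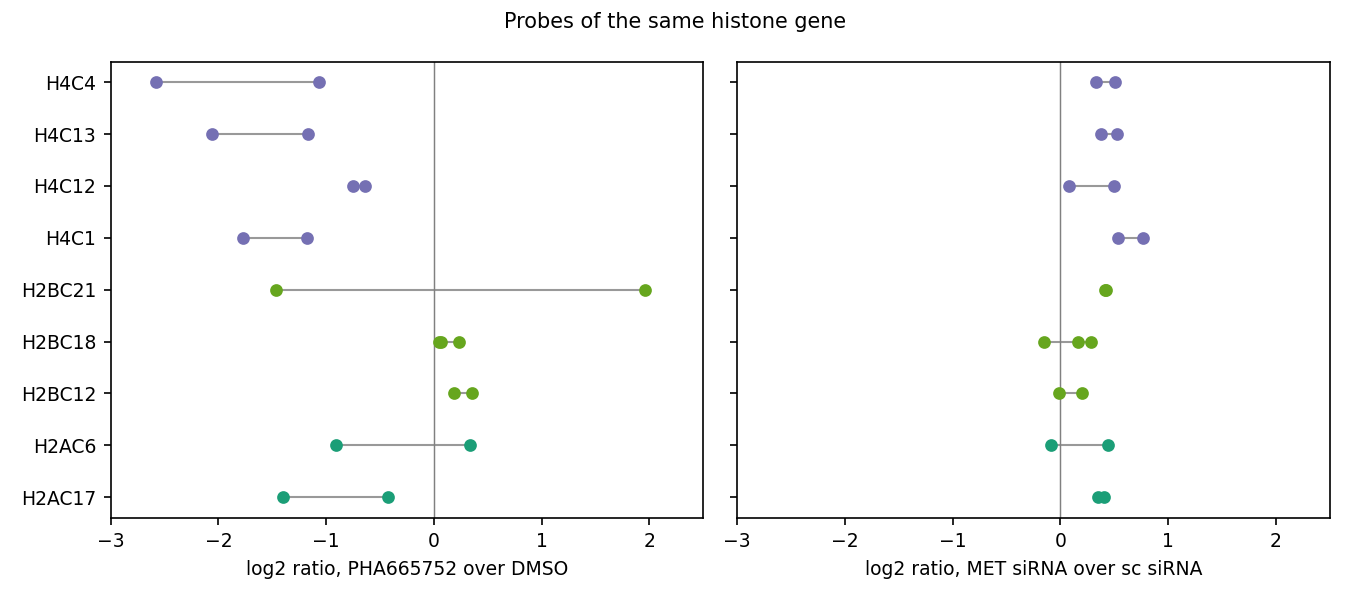
Log2 ratio (horizontal axis) of each probe for the 9 histone genes with more than 1 probe with a ratio, for the inhibitor pair on the left and the siRNA pair on the right; points of a gene are joined by a line and coloured by class as in the other plots. The H2BC21 probes stood at 1.96 and -1.46 under PHA665752 and both at 0.42 under MET siRNA.

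With MET siRNA the histone probes stood slightly above sc siRNA, and none by 2-fold. In this pair 64 members had a ratio, with a median log2 ratio of 0.36, against -0.028 over all 21454 probes with one. Past 2-fold were 0 members in either direction, where the background was 0.811% lower and 2.12% higher. Above 0 were 56 of the 64, among them 16 of 16 for H4, 18 of 20 for H2B, 12 of 13 for H2A, 3 of 3 for H1 and 7 of 12 for H3. Over all probes with a ratio 9705 of 21454 were above 0. The class medians were 0.47 for H1, 0.44 for H4, 0.38 for H2A, 0.24 for H2B and 0.11 for H3. The largest ratio was 0.76 and the lowest -0.23. H3C2 and H3C15, lowest with the inhibitor, had 0.59 and 0.44, and H3C3 had -0.098. When each array was scaled to the median of its probes well above background, the median of all probes in this pair was -0.32. The members then had a median of 0.059, with H2B at -0.056 and H3 at -0.19. The sign of these class medians and the counts above 0 thus depend on the scaling. Relative to the median of all probes the members stood at 0.39, and between 0.32 and 0.39 over the 9 alternatives.

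The inhibitor and siRNA pairs share no array and can be set side by side. Of 62 members with a ratio in both, 32 were below 0 under PHA665752 and above 0 under MET siRNA, 22 were above 0 in both, 5 were below 0 in both and 3 had the reverse order. For H4 the first pattern held in 14 of 14 probes and for H3 in 7 of 12, while 14 of 20 H2B probes were above 0 in both. Over all 20657 probes with both ratios, 2386 were lower with the inhibitor and higher with the siRNA. Of the same probes 6926 were above 0 in both, 6957 were below 0 in both and 4388 had the reverse order. The share of members above 0 in both was thus near that of all probes. These counts by sign depend on the scaling, as given for each pair. Past 2-fold in both pairs were 0 members, where over all probes 204 were so in the same direction and 24 in opposite directions.

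The control arrays themselves differed at H3 and H4, the classes that were lower with PHA665752, and also at H1, which was not. For sc siRNA over DMSO, 65 members had a ratio (1 of them, H1-1, a bound), with a median log2 ratio of -0.35, against 0.0038 over all 23629 probes with one. More than 2-fold lower were 8, or 12.3%, where the background was 1.13%, and 0 were higher, where it was 3.06%. The 8 lower probes were 4 of H3 and 4 of H4. H4C4 had a log2 ratio of -1.69 by probe A_23_P395374, H4C2 of -1.48, H3C2 of -1.37, H3C15 of -1.26 and H4C13 of -1.25 by probe A_23_P70480. The other probe of H4C4 had -0.51 and that of H4C13 -0.94, neither past 2-fold. The class medians were -0.66 for H4, -0.53 for H1, -0.47 for H3, -0.25 for H2A and 0.13 for H2B. This pair and the inhibitor pair share the DMSO array, so a high DMSO signal lowers both ratios. H3C15 was 2.39-fold lower in this pair and 38.0-fold lower in the inhibitor pair. The part of the DMSO array in the inhibitor ratios was not tested.

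Genes that act with the clustered histones were taken from lists. NPAT, the coactivator that gathers at histone clusters, had a signal of 202 under DMSO, 154 under PHA665752, 141 under sc siRNA and 141 under MET siRNA, an inhibitor log2 ratio of -0.18. SLBP, which binds the stem-loop of histone mRNAs, had 14549, 7349, 11136 and 10405, a log2 ratio of -0.77. Of the 23 measured factors of histone transcription and 3′ processing, 4 were more than 2-fold lower and 0 higher with PHA665752, with a median of -0.48. Over all genes 8.04% were lower and 13.1% higher in this pair. These 4 were CCNE2 at -3.30, CDK2 at -1.89, LSM11 at -1.43 and CSTF2 at -1.43. CCNE2 is 1 of 2 cyclin E genes, and CDK2 is the kinase that activates NPAT with cyclin E. LSM11 is a subunit of the U7 particle that cuts histone pre-mRNA, and CSTF2 is a cleavage factor. LSM11 was dim, with 50.8 under DMSO and 16.2 under PHA665752, where the lowest signal well above background was 12.3. CSTF2 had 3595 and 1152. CCNE2 had a signal of 250 under DMSO and 21.8 under PHA665752. CCNE1, the other cyclin E gene, named after its values were seen, had 3915 and 2288, a log2 ratio of -0.56. NFYA, a subunit of NF-Y, had 364, 437, 128 and 125, a log2 ratio of -1.26 between the controls and 0.48 with the inhibitor. It was the 1 factor past 2-fold between the controls, where 1.16% of all genes were lower and 2.89% higher.

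Histone chaperones carry new histones to chromatin. Of 17 measured, 7 were more than 2-fold lower and 0 higher with PHA665752, with a median of -0.72. Over all genes 8.04% were lower and 13.1% higher. CHAF1A and CHAF1B, the large and middle subunits of the CAF-1 complex that deposits H3 and H4 behind the replication fork, had log2 ratios of -2.83 and -2.32. ASF1B, which hands over H3-H4 dimers, had -2.72, and HJURP, which loads CENPA at centromeres, had -2.37. HAT1, which acetylates new H4, had -1.35, NASP -1.07 and HIRA, a chaperone of the H3.3 variant that works outside replication, -1.04.

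Variant histone genes lie outside the clusters and are mostly expressed through the whole cycle. Of 9 with a ratio, 3 were more than 2-fold lower with PHA665752, namely CENPA at -1.69, H2AX at -1.40 and H2AZ1 at -1.13. None was more than 2-fold higher, where over all genes 8.04% were lower and 13.1% higher. H3-3A, which encodes H3.3, had 89430 under DMSO, 78856 under PHA665752, 67198 under sc siRNA and 67350 under MET siRNA, a log2 ratio of 0.033. The S phase markers were lower without exception, 13 of 13 past 2-fold against 8.04% of all genes, with a median of -2.40. Among them RRM2, a subunit of ribonucleotide reductase, had -4.23, CDC45 -3.92 and MCM6, a subunit of the replicative helicase, -1.68. With MET siRNA their median was 0.089 and 0 of 13 passed 2-fold, where 0.696% of all genes were lower and 2.04% higher, and between the controls it was -0.52, with 13 of 13 below 0. The part of S phase share in the histone ratios was not tested.

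**Figure D5:**
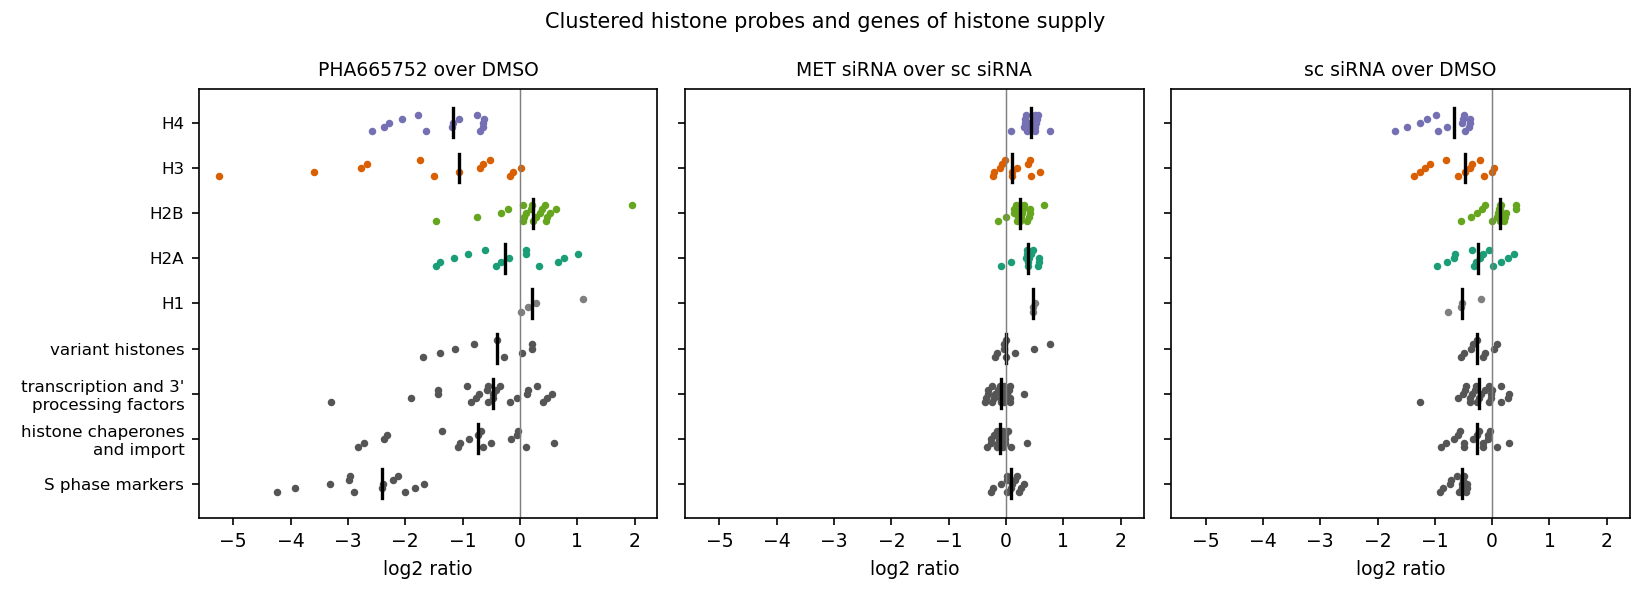
Log2 ratio (horizontal axis) of single genes in 4 lists of genes connected with histone supply (grey) and of the clustered histone probes by class (coloured), in the 3 pairs of arrays; the bar is the median. With PHA665752 the S phase markers stood at a median of -2.40, H4 at -1.17 and H2B at 0.22, and with MET siRNA all of these medians lay between 0.089 and 0.44.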

How the data were processed

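Total RNA of 4 Hs746T cultures was measured on 1 Agilent array each. The authors deposited each spot's processed signal, a linear intensity after background subtraction in Feature Extraction 11.5.1.1, not normalized between arrays, and a series table of the same values, used as an alternative. Spots marked as outliers were left out, log2 signals were averaged per probe, less the array's 75th percentile. A probe well above background on 1 array of a pair gave a bound, on neither no ratio. No spot was saturated. Probes were named through RefSeq accessions (GRCh38.p14, names and gene order only, since the array grid was drawn on another build).

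The pairs were PHA665752 over DMSO, MET siRNA over sc siRNA and sc siRNA over DMSO, the last to show how far the controls differ. With 1 array per group no test was possible, and counts past 2-fold and medians are given beside those of all probes. The noise between spots of an array was 0.078 for a log2 ratio, and differences between cultures are not covered. Members and lists were chosen with earlier results of these data known. Genes were named if among the 3 of highest mean signal of a class, the 5 largest differences past 2-fold in a direction of a pair, past 2-fold in both treated pairs, or with probes more than 1 log2 unit apart, and listed genes if past 2-fold or among the 3 brightest, with SLBP and NPAT. The 9 alternatives were the 50th percentile, quantile normalization, the median of probes well above background, normexp (offset 50), a stricter filter without bounds, no filter on dim probes, outlier marks ignored, the series table and 1 value per gene. The ratio rules were tested on simulated data. Python 3.11.15, pandas 2.3.3, R 4.3.3 and limma 3.58.1 were used.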

Additional observations from a re-analysis of the deposited data

Results flagged for a closer look

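The class medians of H2A, H3 and H4 had opposite signs in the treated pairs, a difference that was not tested. The H2A median log2 ratio was -0.26 under PHA665752 over DMSO and 0.38 under MET siRNA over sc siRNA. The H3 medians were -1.06 and 0.11, and the H4 medians -1.17 and 0.44 in the same order. The sign of the H3 median in the siRNA pair depends on the scaling, as given with that pair.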

How the results depend on the processing

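No paired analysis was possible because each group had 1 array. No median or count reversed in the sense of passing 2-fold the other way. Of 216 values of medians and counts under the 9 alternatives, 204 stayed within the yardstick of 0.28 (the robust SD of the control ratios) or within 1.5 times the count, and 12 moved. Scaling to the median of probes well above background gave siRNA medians of 0.059 for all members, 0.17 for H1, 0.084 for H2A, -0.056 for H2B, -0.19 for H3 and 0.14 for H4, and this scaling moved every ratio of the pair by the same amount. With 1 value per gene the H4 median with PHA665752 was -1.70. Members more than 2-fold higher with PHA665752 numbered 1 with the 50th percentile and 5 with no filter on dim probes, and without that filter 1 was higher in the control pair. In the siRNA pair 1 member was higher with the outlier marks ignored and 1 with the series table. With the marks ignored this was H4C5, named after its value was seen, with a MET siRNA signal of 36.4 and an sc siRNA signal of 2.39. The latter was not well above background, where the lowest such signal on that array was 10.2. Its log2 ratio of 1.80 was therefore a bound. With the 50th percentile the inhibitor medians of H1 and H2B turned to -0.035 and -0.025. The members more than 2-fold lower numbered 16 to 21 under PHA665752, 7 to 11 between the controls and 0 under MET siRNA. Relative to the median of all probes, H3 stood between -1.35 and -0.98 and H4 between -1.78 and -1.04 under PHA665752. Dim members limit precision, and 11 probes were not well above background on any array.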
